A study of Mus musculus with 8 samples.

Results

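The 10 genes described here mark the compartments of the striatum: Oprm1, Bach2, Lypd1, Rxfp1 and Lmo4 for the patches, and Calb1, Brinp3, Id4, Gda and Zfhx3 for the matrix. Every probe set that the array's annotation assigns to 1 of these symbols was taken, which gave 28 of 45037 probe sets, 11 for patch and 17 for matrix genes. A probe set is the group of short probes with which the array reads 1 transcript. RNA came from punches, 500 µm across, of the central striatum of BALB/c mice at postnatal day 0, cut from slices of 300 µm, and each Affymetrix array carried RNA of 1 mouse. There were 3 wild type mice, 1 mouse heterozygous for Ctip2 and 4 Ctip2 null mutants. Ctip2 is listed under its current symbol Bcl11b and encodes a zinc finger transcription factor of striatal projection neurons. The sources used here do not say which part of the gene was deleted or whether mice were littermates, and the labels name no restriction of the mutation to the striatum.

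The striatum is built of patches, islands of early-born projection neurons rich in the mu opioid receptor, and of the surrounding matrix, whose later-born neurons come to contain the calcium-binding protein calbindin. Both compartments hold direct and indirect pathway neurons, and they differ in their cortical inputs and in the midbrain cells that they reach. Around birth the patches are already distinct, while several matrix genes are still being switched on. The comparison asks whether the markers of either compartment stand at another level when Ctip2 is missing. A punch mixes both compartments, so fewer cells of a type and less RNA per cell cannot be told apart.

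Matrix markers went both up and down in null mice, and of the patch markers only Bach2 passed the threshold set out next. The genes were not tested against each other. Null and wild type arrays were compared with limma, a linear model with a variance estimate shared across all probe sets, and a probe set was called at an adjusted p under 0.05. Of the 28 probe sets 7 rose and 1 fell, against 1.87% called higher and 0.453% called lower among all 45037. The members were chosen with earlier results of these data known. Shares set beside their counts, here and below, are therefore a description and no test of an excess. The 7 that rose belong to only 3 genes, Id4 with 3 of its 3 probe sets, Zfhx3 with 3 of 6 and Bach2 with 1 of 3, and the 1 that fell is the only probe set of Brinp3. With each gene represented by its brightest probe set, 1 of 5 patch genes rose (Bach2) and 0 fell, while 1 of 5 matrix genes rose (Id4) and 1 fell (Brinp3), against 2.38% of all 18193 genes called higher and 0.676% called lower.

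The promoters of the 3 genes that passed on their brightest probe set are shown because these genes moved in different directions. RefSeq, with build GRCm38.p6, holds a promoter window for 8 of the 10 genes, and the 250 bases before the first listed start are printed here, 5′ to 3′, from chr13:48260866-48261115 (+ strand) for Id4, chr1:146495379-146495628 (+ strand) for Brinp3 and chr4:32417185-32417434 (+ strand) for Bach2. The starts of Id4 and Brinp3 are the outermost of their genes, and the listed start of Bach2 lies inside its gene, downstream of the outermost one. Capitals mark TGACCA, the hexamer bound by the paralogous factor Bcl11a, and the GC box GGGCGG, each searched on both strands, so that TGGTCA and CCGCCC count too.
Id4: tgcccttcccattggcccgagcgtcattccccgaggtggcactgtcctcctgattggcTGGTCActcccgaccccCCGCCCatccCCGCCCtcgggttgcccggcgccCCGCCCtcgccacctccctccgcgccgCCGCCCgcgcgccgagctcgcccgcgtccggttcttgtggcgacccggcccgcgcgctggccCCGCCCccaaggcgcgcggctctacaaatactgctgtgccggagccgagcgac
Brinp3: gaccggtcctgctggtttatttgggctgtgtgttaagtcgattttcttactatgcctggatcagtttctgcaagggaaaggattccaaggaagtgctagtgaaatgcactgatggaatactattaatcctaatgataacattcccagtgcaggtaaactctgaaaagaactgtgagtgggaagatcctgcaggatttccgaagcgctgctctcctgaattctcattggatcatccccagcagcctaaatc
Bach2: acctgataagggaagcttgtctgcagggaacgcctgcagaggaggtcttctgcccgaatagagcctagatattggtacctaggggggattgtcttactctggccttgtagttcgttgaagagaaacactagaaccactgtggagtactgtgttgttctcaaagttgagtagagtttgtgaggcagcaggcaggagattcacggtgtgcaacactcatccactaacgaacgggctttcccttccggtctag
The Id4 window had a GC content of 75.6% and held 5 GC boxes and 1 hexamer, while those of Brinp3 (44.8% GC) and Bach2 (50.4% GC) held 0 of either. Over 32817 windows of the same length, 32.7% held a GC box, 11.4% held the hexamer, and the median GC content was 52.4%. Among the first windows of the 8 genes, 3 held a GC box (Id4, Lmo4 and Lypd1) and 2 the hexamer (Id4 and Oprm1).

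Before the members, the arrays themselves were looked at. Bcl11b, the targeted gene, fell on all 4 of its probe sets, 2.16-fold on the brightest (limma adjusted p = 0.00911), where the heterozygote lay inside the wild type range. That p was 0.0563 in limma without wild type 3 and 0.0695 without wild type 1 and null 2. Punches carried projection neuron RNA: of 13 measured projection neuron markers 12 lay above the array median on all 8 arrays, and 8 of 10 measured cortical excitatory markers lay below it on all 8. On their brightest probe sets 5 of those 13 projection neuron markers were lower in null mice and 0 higher. Over all genes 0.676% were called lower and 2.38% higher. The list was mixed: 5 of the 13 differences lay above 0, and Ebf1 rose on other probe sets, described at the end. The mean level of the list ran from 9.87 to 10.21 in wild type against 9.42 to 9.69 in null arrays. Of 8 microglia genes 0 passed, at list means from 6.94 to 7.0 and from 7.10 to 7.46. Of 8 pallidal and interneuron genes 1 rose, Lhx6 (2.09-fold, limma adjusted p = 0.0487), and 0 fell. In that list 3 differences lay above 0, among them Lhx8 (1.34, limma adjusted p = 0.133). Its means ran from 7.47 to 8.07 in wild type and from 7.80 to 7.88 in null arrays. Lhx6 was not followed through the other fits. The part of any of these lists in the differences of the compartment markers was not tested. Ttr, a choroid plexus gene, ranged from 7.11 to 13.44, highest in wild type 1 and null 2. The SD of all log2 values on an array ran from 1.84 to 1.97 in wild type, from 1.90 to 2.05 in null mice and was 2.06 in the heterozygote. Where a fit with the spread as a covariate, or one without wild type 1 and null 2, ends the call of a gene named below, its value is given beside that gene.

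**Figure D1:**
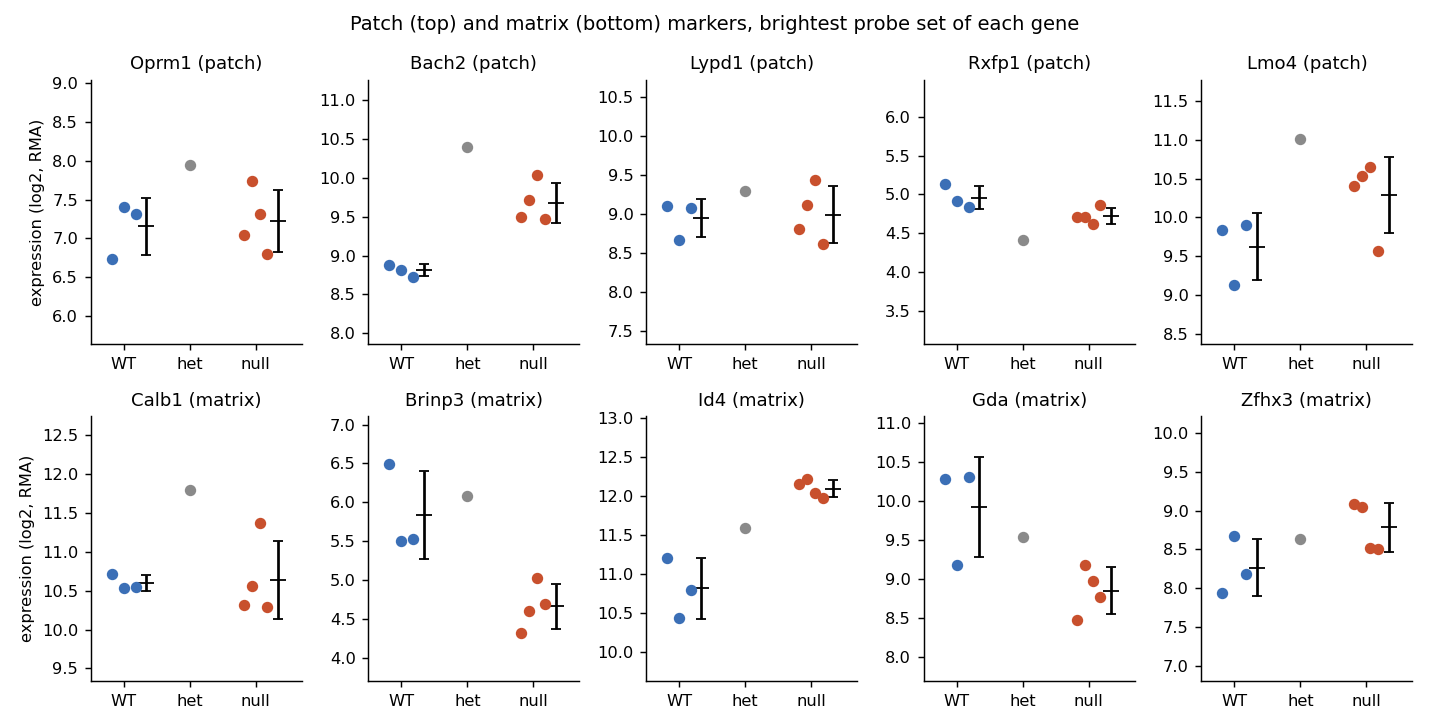
Expression (log2, RMA) of the brightest probe set of each of the 10 genes, patch markers in the upper and matrix markers in the lower row, 1 point per array, with mean ± SD to the right of the wild type and null points and every vertical axis spanning the same range of log2 units. Null arrays lie wholly above wild type for Bach2 and Id4 and wholly below for Brinp3, and the heterozygote lies above all other arrays for Oprm1, Bach2, Lmo4 and Calb1.

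Among the patch markers, Bach2 alone passed the threshold. Bach2 encodes a transcriptional repressor with a leucine zipper. Its brightest probe set, 1436515_at, read 8.88, 8.82 and 8.73 in wild type 1 to 3 and 9.49, 9.71, 10.03 and 9.47 in null 1 to 4. Every null array lay above every wild type array, and the heterozygote, at 10.39, lay above them all. The means of 8.81 ± 0.07 (SD, n = 3) and 9.68 ± 0.26 (SD, n = 4) differed 1.82-fold (log2 difference 0.87, SE 0.15, limma adjusted p = 0.022). The second probe set, 1437667_a_at, ran from 7.50 to 7.86 in wild type and from 8.09 to 8.52 in null mice, again without overlap, but missed the threshold (0.62, limma adjusted p = 0.0644). The dimmest, 1445460_at, differed the other way, by -0.19 (95% interval -0.54 to 0.16). The call of Bach2 was lost without wild type 2 (limma adjusted p = 0.0829), wild type 3 (0.103) or null 2 (0.0772). It was also lost with the mean of its 3 probe sets (limma adjusted p = 0.0579), with the heterozygote among the controls (0.703), without wild type 1 and null 2 together (0.0964) and with array spread as a covariate (0.122), although the difference stayed above 0 in each.

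Lmo4, a LIM-only cofactor of transcription complexes, was higher in most null arrays without passing. Its single probe set read 9.84, 9.13 and 9.90 in wild type and 10.41, 10.53, 10.65 and 9.57 in null 1 to 4. Null 4 fell among the wild type values and the other null arrays above them. The difference was 0.67 (95% interval 0.05 to 1.28, limma adjusted p = 0.228), and without null 4 it was 0.91 and passed (limma adjusted p = 0.0463). With the spread covariate it came to 0.16 (limma adjusted p = 0.923). The heterozygote read 11.01, above every other array.

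Oprm1, the mu opioid receptor gene and the defining patch marker, did not pass on any of its 4 probe sets. The brightest read 6.73, 7.41 and 7.32 in wild type and 7.05, 7.74, 7.31 and 6.80 in null mice. The groups covered nearly the same range, and the difference of 0.07 had a 95% interval from -0.46 to 0.60 (limma adjusted p = 0.861). Its sign changed in 8 of 20 other fits, some of which leave the difference as it is. The other probe sets differed by -0.01, -0.18 and -0.06, with intervals that lay between -0.48 and 0.35. The array was blind to where the receptor lies: these are levels in a punch, and the grouping of Oprm1 cells into patches was not measured.

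Lypd1 and Rxfp1 complete the patch genes. Lypd1 encodes a membrane-anchored protein of the Ly6 family that binds nicotinic acetylcholine receptors. Its brightest probe set ranged from 8.67 to 9.10 in wild type and from 8.61 to 9.44 in null mice, a difference of 0.05 (95% interval -0.41 to 0.51). Its second probe set, 1442887_at, read 7.02, 6.16 and 6.94 in wild type and 7.11, 7.16, 7.38 and 7.31 in null mice. Here all null arrays lay above all wild type arrays, the nearest by a narrow gap, and the difference of 0.53 missed the threshold (limma adjusted p = 0.204). Rxfp1, the relaxin receptor gene, lay below the array median on all 8 arrays, at 4.84 to 5.13 in wild type and 4.62 to 4.87 in null mice, with a difference of -0.24 (95% interval -0.52 to 0.04). At so low a signal a change of the transcript may not be readable.

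**Figure D2:**
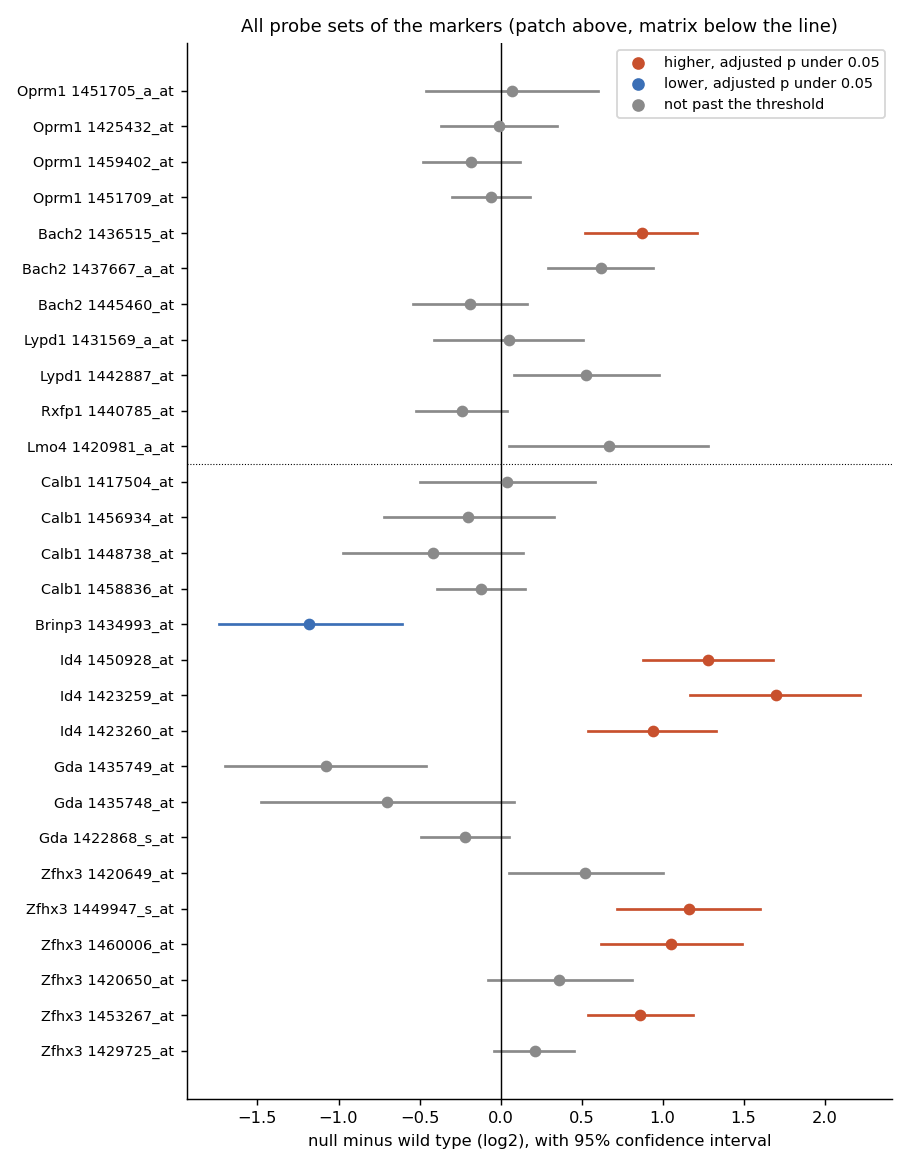
Difference between null and wild type means (log2) for each of the 28 probe sets, with its 95% confidence interval from the limma fit, patch genes above the dotted line and matrix genes below, coloured by whether the adjusted p was under 0.05. The 3 probe sets of Id4 and 6 of Zfhx3 lie above 0, the 3 of Gda and 1 of Brinp3 lie below, and the intervals of every Oprm1 and Calb1 probe set include 0.

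Id4 showed the strongest rise of the 10 genes. Its product is a helix-loop-helix protein that pairs with basic helix-loop-helix factors and keeps them from DNA, and besides matrix neurons it is made by neural progenitors and glia. The brightest probe set, 1450928_at, read 11.21, 10.43 and 10.80 in wild type 1 to 3 and 12.15, 12.22, 12.04 and 11.97 in null 1 to 4. The null arrays lay close together, all above wild type, and the heterozygote, at 11.59, lay between the groups. The wild type mean of 10.81 ± 0.39 (SD, n = 3) and the null mean of 12.09 ± 0.11 (SD, n = 4) made a 2.43-fold rise (limma adjusted p = 0.0082). Probe set 1423259_at rose 3.24-fold (limma adjusted p = 0.00808) and 1423260_at 1.91-fold (0.0282), and groups overlapped on neither. The call on the brightest probe set held with each array left out in turn, at adjusted p values from 0.0047 to 0.0465 in limma. It was lost with the heterozygote among the controls (difference 1.08, limma adjusted p = 0.0723) and with the spread covariate (1.04, 0.0534), while 1423259_at kept its call with the latter (0.0422) and 1423260_at with the former (0.0482). Omission of wild type 2, wild type 3, null 1 or null 2 ended the call of 1423260_at, with limma adjusted p values up to 0.118, as did quantile normalization (0.0901), the spread covariate (0.149) and omission of wild type 1 with null 2 (0.0949).

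Since Id4 is also a gene of glia and progenitors, markers of these cells were set beside it. Of 10 astrocyte and radial glia genes 1 rose (Slc1a2, a glutamate transporter gene, by 0.78, limma adjusted p = 0.0478) and 0 fell. Over all genes 2.38% were called higher and 0.676% lower. The median difference of the list was 0.24, against -0.08 over all genes. The mean level of the list ran from 8.12 to 8.66 in wild type and from 8.46 to 8.83 in null mice. All 10 lay above the array median on all 8 arrays. The call of Slc1a2 was lost in 12 of 20 other fits. With the mean of its probe sets the difference was only 0.21 (limma adjusted p = 0.285). Among the others were the spread covariate (limma adjusted p = 0.238) and omission of wild type 1 with null 2 (0.104). Omission of 1 of wild type 2, wild type 3, null 1, null 2 or null 3 also ended it (0.0733 to 0.186). The part of these cells in the rise of Id4 was not tested.

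Zfhx3, which encodes a large transcription factor with zinc fingers and homeodomains, rose on 3 of its 6 probe sets, and all 6 differences lay above 0. The array reads this gene with more probe sets than any of the other 9, and the brightest was not among those that passed. Probe set 1449947_s_at read 7.92, 8.0 and 7.13 in wild type and 8.85, 8.82, 8.87 and 8.85 in null 1 to 4, a 2.24-fold rise (limma adjusted p = 0.0183). Probe set 1460006_at rose 2.07-fold (limma adjusted p = 0.0254) and 1453267_at 1.82-fold (0.0173). On these 3 the groups did not overlap, and the heterozygote lay above every wild type array, at 8.68, 8.35 and 7.69. The brightest, 1420649_at, read 7.94, 8.67 and 8.19 in wild type and 9.08, 9.04, 8.52 and 8.51 in null mice. Wild type 2 stood above null 3 and null 4 there, and the difference of 0.52 missed the threshold (limma adjusted p = 0.223). With the mean of the 6 probe sets Zfhx3 rose (0.70, limma adjusted p = 0.0101). The 3 calls were open to single arrays: all were lost without null 1 or null 2, 1453267_at and 1460006_at also without wild type 2 or 3, and 1460006_at without null 3, at limma adjusted p values up to 0.119. With the spread covariate their differences were 1.10, 0.71 and 0.73 for 1449947_s_at, 1460006_at and 1453267_at, and none passed (limma adjusted p from 0.108 to 0.129), nor did they with the heterozygote among the controls (0.242 to 0.451). Without wild type 1 and null 2 together, 1449947_s_at and 1453267_at missed the threshold (limma adjusted p = 0.062 and 0.0638), as did 1449947_s_at after quantile normalization (0.0509) and 1460006_at after median centring (0.0535).

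Brinp3 fell in null mice, opposite to Id4, while Gda did not pass on any of its 3 probe sets. Brinp3 encodes a neuronal protein whose family is induced by bone morphogenetic protein and retinoic acid. Its probe set read 6.49, 5.50 and 5.53 in wild type and 4.32, 4.61, 5.03 and 4.69 in null mice. No null array reached the lowest wild type array, and the heterozygote, at 6.08, lay inside the wild type range. Wild type arrays averaged 5.84 ± 0.56 (SD, n = 3) and null arrays 4.66 ± 0.29 (SD, n = 4), a 2.26-fold fall (limma adjusted p = 0.0461). It lay above the array median on 1 of 8 arrays, wild type 1, so this fold is measured near the lower end of the scale. The call was lost without any 1 of wild type 2, wild type 3, null 1, null 2 or null 4 (limma adjusted p from 0.0516 to 0.13), with arrays centred on their median (0.103) or quantile normalized (0.0843), with the heterozygote among the controls (0.0582) and without wild type 1 and null 2 together (0.122). It held with the spread covariate, where the difference was -1.56.

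Gda encodes guanine deaminase, also known as cypin, an enzyme of purine breakdown that acts on dendrite branching. Its brightest probe set, 1435749_at, read 10.29, 9.18 and 10.31 in wild type and 8.47, 9.18, 8.97 and 8.77 in null mice. Wild type 2 stood level with null 2 and the other wild type arrays above every null array. The difference of -1.08 (95% interval -1.70 to -0.46) missed the threshold (limma adjusted p = 0.0821). It passed without wild type 2 (-1.45, limma adjusted p = 0.0184), with array weights (-1.32, 0.017) and with quantile normalization (-1.27, 0.0326). The other probe sets differed by -0.70 and -0.22 and did not pass either.

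Calb1, the gene of calbindin and the defining matrix marker, differed little between the groups but stood apart in the heterozygote. The brightest probe set read 10.71, 10.53 and 10.55 in wild type and 10.32, 10.56, 11.37 and 10.29 in null mice. Null 3 was the only null array above the wild type range, and the null SD of 0.50 (n = 4) exceeded the wild type SD of 0.10 (n = 3). The difference was 0.04 (95% interval -0.50 to 0.58, limma adjusted p = 0.925). Its sign changed in 6 of 20 other fits, some of which leave the difference as it is. The other 3 probe sets differed by -0.20, -0.42 and -0.12, none past the threshold. The heterozygote read 11.79 on the brightest probe set, and on 1456934_at and 1448738_at it read 7.86 and 7.35, against at most 6.71 and 6.07 on any other array. On the dimmest, 1458836_at, it read 4.22, below the wild type range.

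The sets as a whole can be set side by side. Differences of the 5 patch genes ran from -0.24 to 0.87 with a median of 0.07, and those of the 5 matrix genes from -1.18 to 1.28 with a median of 0.04. Both medians lie near the median of -0.08 over all 18193 genes, and the matrix genes spread further to both sides. On 10 of the 28 probe sets every null array lay above every wild type array, and on 2 every null array lay below, against 7.7% and 8.85% of all probe sets. The mean shift of the 5 patch genes from their wild type means was 0.19, 0.46, 0.51 and -0.04 in null 1 to 4, and that of the 5 matrix genes -0.22, 0.03, 0.10 and -0.24. In each null array the patch shift exceeded the matrix shift, by 0.41, 0.43, 0.41 and 0.21, while in wild type 1 to 3 this excess was -0.20, 0.11 and 0.09 and in the heterozygote 0.28. Shifts are taken from the wild type means, so the wild type excesses cancel out by construction. All null arrays share that baseline, and their excesses are not independent of it. Each shift also averages 5 genes that differed in size and, in the matrix set, clearly in direction (Id4 up, Brinp3 down). The excess has no test of its own here.

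**Figure D3:**
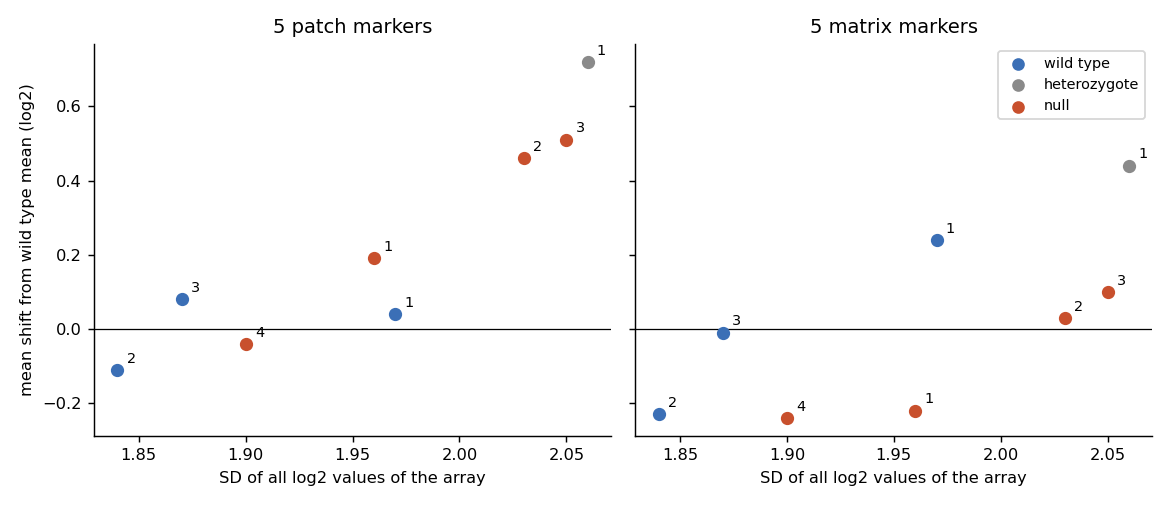
Mean shift of the brightest probe sets of the 5 patch genes (left) and the 5 matrix genes (right) from their wild type means (log2), against the SD of all log2 values of the array, 1 point per array with its replicate number. The heterozygote has the widest spread (2.06) and the highest shift in both sets (0.72 and 0.44), followed in the patch set by null 3 and null 2 (0.51 and 0.46).

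The single heterozygote array lay outside the range of all other arrays for some markers. On the brightest probe sets of Id4, Gda and Zfhx3 it lay between the group means. For Oprm1, Lypd1 and Calb1 these means nearly coincide, so a place between them could hardly be seen. On the brightest probe sets of 4 of the 10 genes it lay above every wild type and null array, against 14% of all genes. These were Oprm1 (7.95), Bach2 (10.39), Lmo4 (11.01) and Calb1 (11.79). Over all 28 probe sets it did so on 11, several of them of the same gene. The matching share over all probe sets was not computed, so this count is not read as an excess. On Oprm1 probe set 1459402_at it read 6.26, below every other array, and on Bach2 probe set 1445460_at 7.32, inside the wild type range. On Rxfp1 it read 4.42, below all other arrays (4.62 to 5.13). On Brinp3 it lay inside the wild type range, and on Id4 between the groups on the brightest probe set. With 1 mouse there is no error for these values. The array also had the widest spread of log2 values of the 8, and the part of that spread in its high readings was not tested.

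Other genes known from either compartment were taken from a list. Of 13 other patch genes 3 rose (Tshz1, Kcnip1 and Gria1), 2 fell (Ppp1r1b and Drd1) and 8 did not pass, with a median difference of -0.14. Over all 18193 genes 2.38% were called higher and 0.676% lower. Kcnip1, a potassium channel partner protein gene, read 7.86, 7.32 and 6.63 in wild type and 8.63, 8.91, 9.10 and 8.31 in null mice, a 2.76-fold rise (limma adjusted p = 0.0281), and Tshz1, a zinc finger gene, rose 2.13-fold (0.027). Gria1, an AMPA receptor subunit gene, rose 1.79-fold (limma adjusted p = 0.0352). Ppp1r1b, whose product DARPP-32 first appears in patches, fell 2.46-fold (limma adjusted p = 0.0235), and the dopamine receptor gene Drd1 fell 1.91-fold (0.0438). Thus genes of the patch list moved in both directions, as the matrix markers did. Both that fell, Ppp1r1b and Drd1, were also counted above among the projection neuron markers lower in null mice. Their fall is therefore not particular to a patch list. All 5 calls were lost with the spread covariate (limma adjusted p from 0.112 to 0.20), and each depended on single arrays. With wild type 1 and null 2 both omitted, Gria1, Ppp1r1b and Drd1 missed the threshold (limma adjusted p = 0.0564, 0.122 and 0.151), while Tshz1 (0.0265) and Kcnip1 (0.0458) passed. Tshz1 missed the threshold without wild type 2, wild type 3, null 1 or null 3 (limma adjusted p up to 0.111), and Kcnip1 and Gria1 without wild type 2, wild type 3, null 1, null 2 or null 3 (up to 0.0999 and 0.133). Ppp1r1b did so without wild type 2, null 1 or null 2 (limma adjusted p up to 0.0983), and Drd1 without wild type 1, wild type 2, null 1, null 2 or null 3 (up to 0.145). Rasgrp1, a Ras exchange factor of patches, showed a difference of -1.43 on its brightest probe set that just missed the threshold (limma adjusted p = 0.0525).

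Of 6 other matrix genes, each on its brightest probe set, 1 fell (0.676% of all genes did) and 5 did not pass. Their median difference was -0.06. The 1 that fell was Rasgrp2, an exchange factor for Rap that is known from the matrix. It read 9.25, 9.25 and 8.83 in wild type and 8.19, 8.04, 7.72 and 7.89 in null mice, with the heterozygote at 8.73. No null array reached the wild type range, and Rasgrp2 fell 2.23-fold (limma adjusted p = 0.00808). The call held with each of the 7 arrays left out and was lost with the spread covariate (limma adjusted p = 0.0529) and without wild type 1 and null 2 together (0.0573). Cdh8, a cadherin gene of the matrix, had the second largest difference at 0.79 (limma adjusted p = 0.0741). Ebf1, not called on its brightest probe set, rose on other probe sets that are described at the end.

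**Figure D4:**
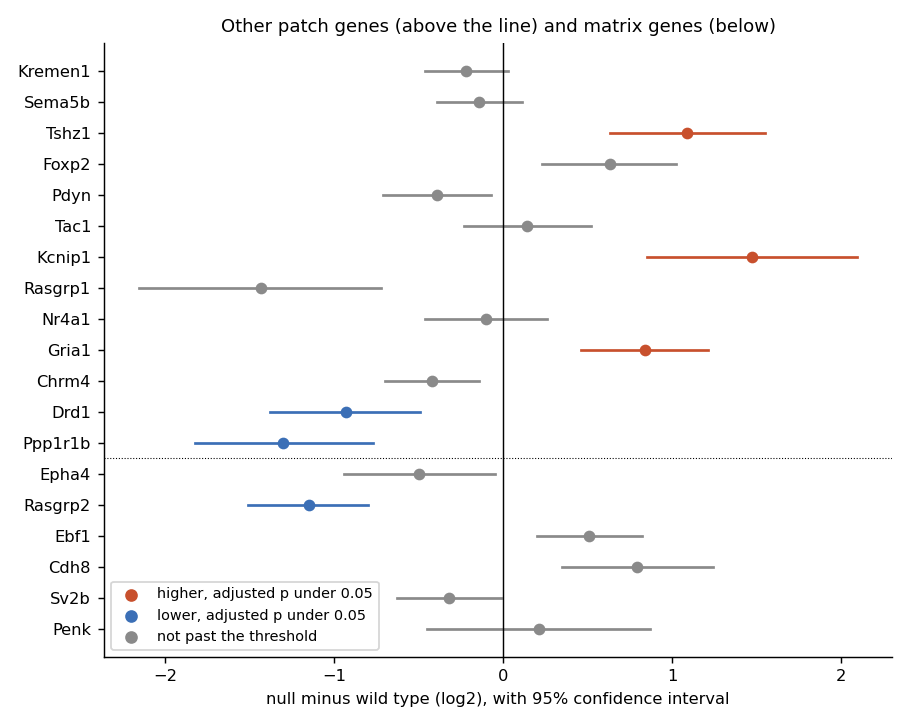
Difference between null and wild type means (log2) on the brightest probe set of 13 other patch genes (above the dotted line) and 6 other matrix genes (below), with 95% confidence intervals from the limma fit. Kcnip1, Tshz1 and Gria1 lie to the right and Ppp1r1b, Drd1 and Rasgrp2 to the left of 0 past the threshold.

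Calls changed between fits while the signs of Id4, Bach2 and Brinp3 did not. In the plot of 17 fits, Id4 lay between 1.04 and 1.48, Bach2 between 0.47 and 0.93, and Brinp3, which the filter on dim probe sets removed, between -1.56 and -0.84. Calb1 and Oprm1 lay on either side of 0.

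**Figure D5:**
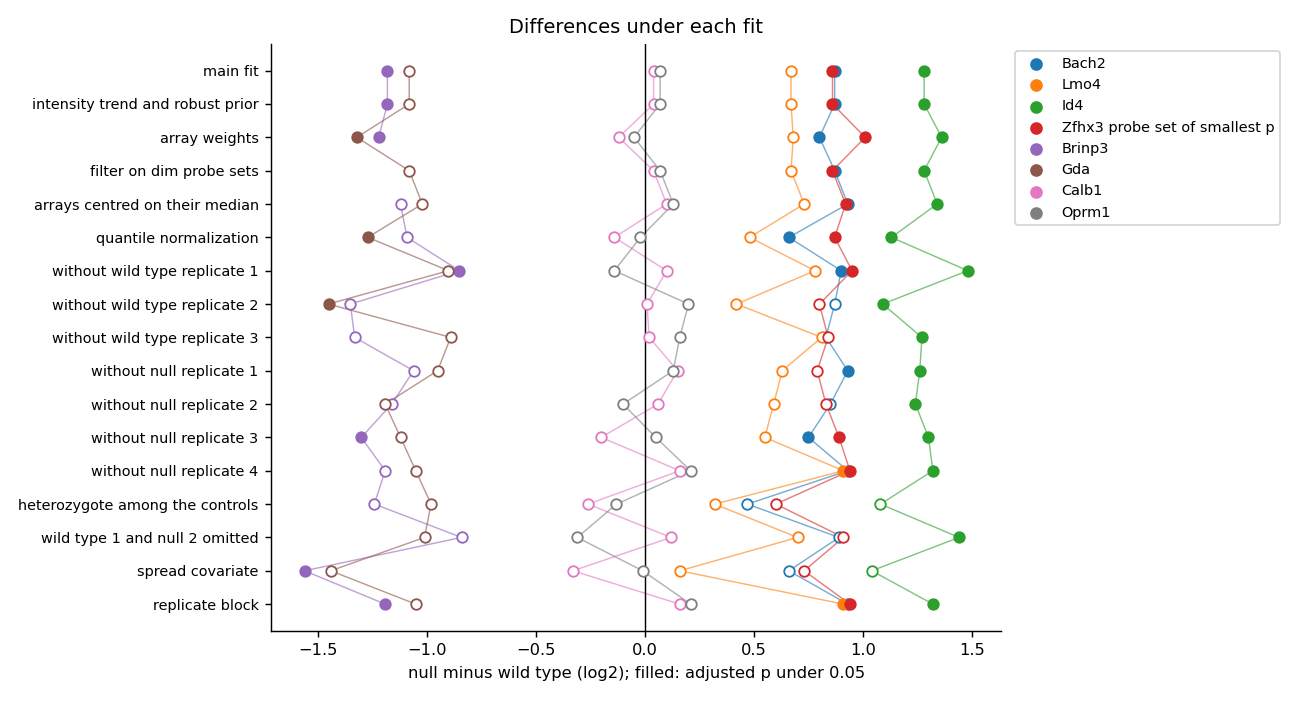
Difference between null and wild type (log2) of 8 probe sets under the main fit and 16 other fits, filled where the adjusted p was under 0.05. Id4 keeps its call in all but 2 fits (heterozygote among the controls and spread covariate), Brinp3 is absent from the fit with the filter on dim probe sets, Bach2 and Brinp3 lose their calls in several, and Calb1 and Oprm1 cross 0.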

How the data were processed

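The authors deposited log2 values, 1 per probe set and array, computed with RMA (Bioconductor) according to the design text of the series. RMA subtracts background, brings arrays to 1 distribution and summarises each probe set. The sources used here name neither its version nor a filter, nor which arrays were processed together. The values were used unchanged, and no control probe set was among them. Of 45037 probe sets 34945 had 1 symbol, updated through gene IDs (RefSeq, GRCm38.p6).

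For null against wild type, limma 3.58.1 in R 4.3.3 was run on 7 arrays (lmFit and eBayes, no covariate, Benjamini-Hochberg adjustment over all probe sets) and tested on simulated data. The heterozygote entered the fit of 2 alternatives only, and it also helped to set the common distribution in the quantile normalization. The probe set of highest mean over the 7 arrays stood for a gene. Errors beside means are SDs. The p values come from the limma test, which sets a group difference against the spread between mice, with a variance estimate shared across probe sets. The genes named were all members, the listed patch and matrix genes that passed and the 2 of largest difference on each list. Members, lists and alternatives were chosen with earlier results of these data known. The study's own test was the SAM d score with a cut at 2, run here as an alternative. Plots were made in Python 3.11.15 using matplotlib 3.10.9.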

Additional observations from a re-analysis of the deposited data

Results flagged for a closer look

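On Zfhx3 probe set 1420650_at the array null 4 read 8.21, far above the other 3 null arrays (7.48 to 7.60), with a gap that took 0.841 of the range of the 4. Among the null arrays of 28 probe sets it was the 1 such case, and chance flags about 1 in 20 groups.

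The heterozygote, which entered no comparison of the main fit, lay above every wild type and null array on the brightest probe sets of Oprm1 (7.95), Bach2 (10.39), Lmo4 (11.01) and Calb1 (11.79). It is 1 mouse, and whether another heterozygote would read the same was not tested.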

How the results depend on the processing

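Direction was kept in all 20 alternatives by Bach2, Lmo4, Id4, Gda and Zfhx3 and in 19 that could be run by Brinp3 and Rxfp1, which the filter on dim probe sets removed. Not all of these could change it. The SAM score, the intensity trend with robust prior, the dim filter, adjustment over genes and the heterozygote as its own group leave the difference as in the main fit. The replicate block repeats the difference found without null 4. Oprm1, Lypd1 and Calb1, none of which passed in the main comparison, changed sign: to -0.05, -0.07 and -0.12 with array weights, -0.02, -0.15 and -0.14 with quantile normalization, -0.13, -0.04 and -0.26 with the heterozygote among the controls and -0.01, -0.33 and -0.33 with the spread covariate. Oprm1 and Calb1 did so with the mean of a gene's probe sets (-0.04 and -0.17), and Oprm1 without wild type 1 and null 2 (-0.31). With single arrays left out they ranged from -0.14 to 0.21 (Oprm1), -0.10 to 0.18 (Lypd1) and -0.20 to 0.16 (Calb1).

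Counts moved as follows. A SAM score beyond 2 gave 1 patch and 2 matrix genes lower, 4 member probe sets lower, and 4630 higher and 5717 lower among all probe sets. Array weights gave 2 matrix genes higher and 2 lower, 2 member probe sets lower, and 2686 and 965 over all. The dim filter left 0 matrix genes and 0 member probe sets lower, as did median centring, which gave 548 higher and 124 lower over all. Quantile normalization gave 318 lower over all. The mean of a gene's probe sets gave 0 patch and 2 matrix genes higher and 548 of all genes higher, and adjustment over genes 521. The heterozygote among the controls left 0 patch and 0 matrix genes higher, 0 matrix genes lower, 1 member probe set higher and 0 lower, and 110 and 96 over all. Without wild type 1 and null 2, 0 patch genes were higher, 0 matrix genes lower, 3 member probe sets higher and 0 lower, and 412 and 62 over all. The spread covariate left 0 patch and 0 matrix genes higher, 1 member probe set higher, and 189 and 93 over all. With single arrays left out, patch genes higher ran from 0 to 2, matrix genes lower from 0 to 1, member probe sets higher from 2 to 9 and lower from 0 to 1, and all probe sets from 210 to 1733 higher and 76 to 443 lower. The cause of these moves was not tested.

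Same-numbered wild type and null arrays did not deviate together (correlations -0.25, -0.31 and -0.17, against -0.42 to 0.37 for differently numbered arrays). The numbers are therefore not taken as pairs. Whether some arrays share a litter or batch was not tested. The replicate block gave 2 patch genes higher, Lmo4 being the second, and 1696 probe sets higher over all. Only null mice have a replicate 4, so the block takes null 4 out of the comparison. Its differences equal those without null 4, which for Lmo4 is 0.91. With 3 and 4 mice a group, differences near 0.5 log2 units (0.53 on a Lypd1 probe set, 0.52 on Zfhx3) did not pass.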

Other observations

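Probe sets of other compartment genes, chosen after their values were seen, differed within a gene. Ebf1, a transcription factor gene of matrix neurons, missed the threshold on its brightest probe set (0.51, limma adjusted p = 0.0939), yet it rose on 3 of its 5 probe sets, by 2.28-fold, 2.35-fold and 2.68-fold (limma adjusted p = 0.00583, 0.00852 and 0.0033). With the heterozygote among the controls none of the 3 passed (limma adjusted p = 0.139, 0.142 and 0.077), and without wild type 1 and null 2 the second did not (0.059). Rasgrp1 fell 1.94-fold on 1 of its 4 probe sets (limma adjusted p = 0.00935), a call lost without wild type 1 and null 2 (0.0605), and all 4 lay below 0. Foxp2, a patch gene, differed by 0.50 to 0.97 on 4 of its 6 probe sets without passing on any (limma adjusted p from 0.0791 to 0.105), and by -0.10 and -0.14 on the other two.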
